A study of Mus musculus with 2 samples.

Results

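The genes described here are S100b, Sox10, Gfap, Ngfr, Pmp22 and Cdh19, 6 transcripts known from Schwann cells and other glia, out of 24288 genes with a symbol on the array. They were chosen by symbol, and every probe that carries one of these symbols is shown, 9 probes of 55681 in all. RNA came from pancreatic islets isolated from C57BL/6J mice aged 8 weeks and was read on one-colour Cy3 arrays. The pancreatectomy group is 4 arrays of islets taken 3 days after 60% of the pancreas was removed, and the sham group is 4 arrays of islets taken 3 days after a sham operation. The labels name no transgene, Cre line or drug in either group. No label ties an array to an animal or an islet preparation of its own, so a p-value here covers the spread of the 8 arrays alone, part of which may be technical.

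Schwann cells are the glia of peripheral nerves, and in the mouse they also form a thin sheath around islets beside the autonomic nerve endings. Sox10 is the transcription factor that holds cells of the neural crest in the glial lineage. Mature Schwann cells either wrap axons in myelin or, as non-myelinating cells, surround small fibres, and after nerve injury they can return to a repair state that carries Ngfr and Gfap. S100b encodes a calcium-binding protein, Gfap an intermediate filament, Ngfr the p75 neurotrophin receptor, Pmp22 a protein of compact myelin that other cell types also make, and Cdh19 a cadherin of Schwann cell precursors.

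The label of the group held in part. S100b, Sox10, Ngfr and both Pmp22 probes were well above background on all 8 arrays. Cdh19 was well above background on 4 pancreatectomy and 3 sham arrays, and the 3 Gfap probes reached this on 3, 2 and 0 pancreatectomy arrays and on 3, 3 and 0 sham arrays. Among astrocyte markers 3 of 5 genes were measured. One of them, Aldh1l1, had normalized log2 signals of 10.42, 6.87, 8.25 and 10.06 on pancreatectomy arrays and 7.11, 7.04, 6.84 and 10.24 on sham arrays. It was highest on the 3 arrays with liver transcripts described with Gfap. Among melanocyte markers, which share Sox10 with glia, 5 of 6 were measured while Tyrp1 was not well above background on any of the 8 arrays. The arrays hold RNA of whole islets, so fewer cells of a type and less RNA per cell cannot be told apart. Values below are normalized log2 signals of single probes, and a difference is the pancreatectomy mean minus the sham mean on that scale with its standard error (SE). Probe positions are on the mm9 build, and exon or UTR annotation was not used here.

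None of the 8 probes kept for testing passed an adjusted p of 0.05 in limma, and 1 of them, a Pmp22 probe, had an unadjusted p under 0.05. Across all 37491 kept probes 195 (0.52%) passed with higher and 31 (0.0827%) with lower values in pancreatectomy islets, and 4119 had an unadjusted p under 0.05. The differences of the 8 probes were positive in 7 and negative in 1, with a median of 0.295 against -0.0431 over all kept probes. The groups did not overlap for 1 of the 8, the same Pmp22 probe. Across all kept probes 2.9% were apart with pancreatectomy higher and 5.64% with pancreatectomy lower. With 8 probes these counts are a description of the members.

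**Figure D1:**
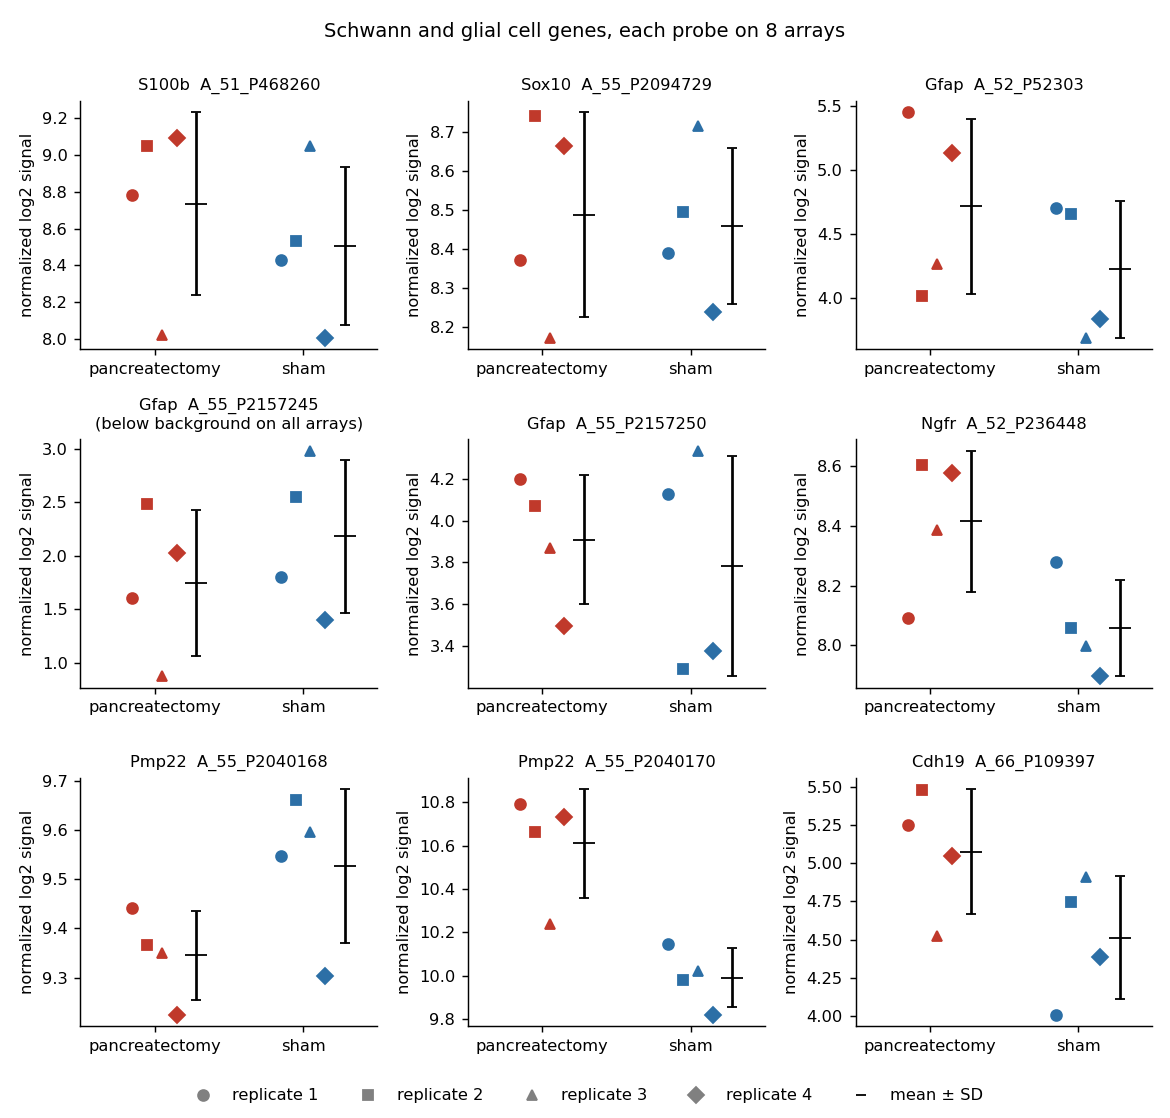
Normalized log2 signal (y axis) of the 9 probes of the 6 genes on each of 4 pancreatectomy arrays (left, red) and 4 sham arrays (right, blue), with symbols for replicates and the mean ± SD beside them. The groups overlap in every kept probe except Pmp22 A_55_P2040170, where pancreatectomy arrays sit at 10.24 to 10.79 and sham arrays at 9.82 to 10.15.

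Sox10 (A_55_P2094729, chr15:78985518-78985577, minus strand) had normalized log2 signals of 8.37, 8.74, 8.17 and 8.67 on pancreatectomy arrays and 8.39, 8.49, 8.72 and 8.24 on sham arrays. The groups covered nearly the same range, with the highest value on pancreatectomy replicate 2 and the next on sham replicate 3. Sox10 averaged 8.49 ± 0.264 in pancreatectomy islets and 8.46 ± 0.201 in sham islets (SD, n = 4 arrays each). The difference of 0.028 ± 0.18 had a 95% interval of -0.38 to 0.44 and a limma adjusted p of 0.966. Its sign turned to -0.093 with median scaling, which moved the median of all kept probes to -0.164.

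S100b (A_51_P468260, chr10:75723783-75723842, plus strand) had signals of 8.78, 9.05, 8.02 and 9.09 on pancreatectomy arrays and 8.43, 8.53, 9.05 and 8.01 on sham arrays. Each group held both an array near the top and an array near the bottom of this range. S100b averaged 8.74 ± 0.499 in pancreatectomy islets and 8.504 ± 0.429 in sham islets. Its difference of 0.23 ± 0.30 (1.17-fold, 95% interval -0.44 to 0.90) had an adjusted p of 0.801 in limma. It was -0.14 without pancreatectomy replicates 1 and 4 and sham replicate 4, the arrays with liver transcripts described with Gfap.

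S100b and Sox10 varied together across arrays more than they differed between groups. Both had their 3 highest values on pancreatectomy replicates 2 and 4 and sham replicate 3, and both their 2 lowest on pancreatectomy replicate 3 and sham replicate 4. With each group's mean removed, Pearson's r between them over the 8 arrays was 0.949, and r with Cdh19 was 0.749 for S100b and 0.746 for Sox10. These are descriptions over arrays that share 1 slide and 1 scaling. The 3 arrays with the highest values were also the 3 dimmest, with a 75th percentile of the processed signal of 279 and 376 on these pancreatectomy arrays and 177 on sham replicate 3, against 522 to 653 on the other 5. Of 37378 kept probes with a value on every array, 3081 (8.24%) had their 3 highest values on these 3 arrays. The part of array brightness in the pattern was not tested.

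**Figure D2:**
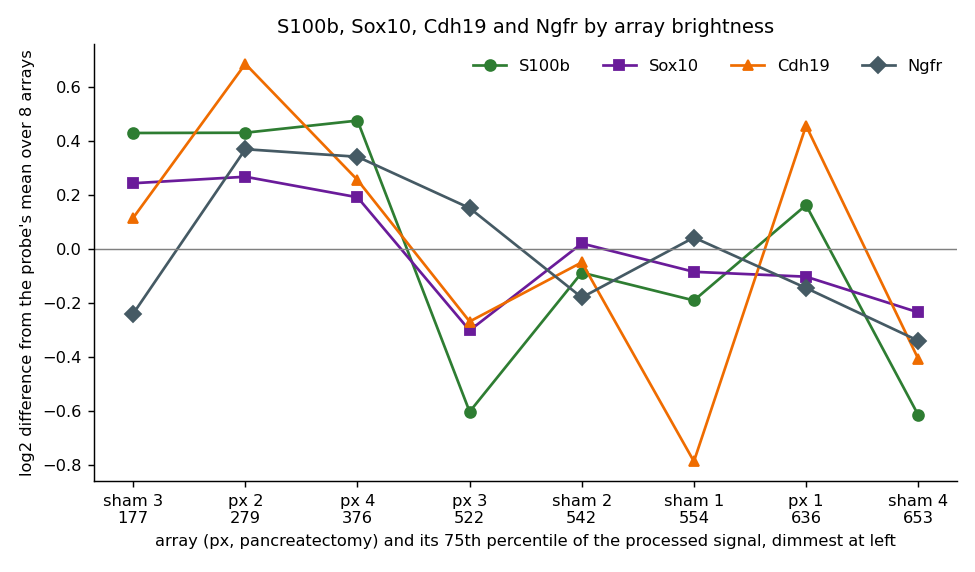
Log2 difference of S100b, Sox10, Cdh19 and Ngfr from each probe's mean over 8 arrays (y axis), with arrays ordered along the x axis by their 75th percentile of the processed signal, 177 at left to 653 at right (px, pancreatectomy). S100b and Sox10 lie above their means on the 3 arrays at left, and Ngfr is below its mean on sham replicate 3.

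Peripheral neuron markers, which nerve fibres or ganglia in the preparation could bring, showed a similar order of arrays. Their summed linear signal was 8690, 12400, 10700 and 12400 on pancreatectomy arrays and 9170, 11100, 15700 and 9740 on sham arrays. Its 3 highest values fell on the same 3 arrays as those of S100b and Sox10, as did the highest sums of the islet endocrine and neurotrophin lists below. Sums are led by the brightest probes. By mean log2 difference from the sham mean, the 3 highest arrays were the same for neuron markers, but not for those other lists. Of 14 neuron markers 13 were measured, 0 passed in either direction, the median difference was 0.20, and Slc6a2, the noradrenaline transporter, was not well above background on any of the 8 arrays. Sums of islet endocrine markers, which include insulin, were 1700000, 2980000, 2110000 and 2310000 on pancreatectomy arrays and 2190000, 2120000, 4000000 and 1760000 on sham arrays. Sums of the neurotrophin list were 43200, 53500, 39500 and 56600 on pancreatectomy arrays and 50000, 49100, 60800 and 48400 on sham arrays. This list holds neurotrophins and their receptors, and also genes that are neither, such as Maged1 and Bex3. Its brightest probe was that of Maged1, at 14.60, 15.14, 14.53 and 15.04 on pancreatectomy arrays and 14.91, 14.76, 15.01 and 14.85 on sham arrays. By mean log2 difference from the sham mean, the neurotrophin list was highest on sham replicates 1 and 2, at 0.155 and 0.0598. Islet endocrine markers were highest on sham replicate 3 (0.449), pancreatectomy replicate 2 (0.0334) and sham replicate 1 (-0.0642). The part of neurons or endocrine cells in the glial values was not tested.

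Ngfr (A_52_P236448, chr11:95430211-95430270, minus strand) is printed in 10 spots on each array. Its signals were 8.09, 8.61, 8.39 and 8.58 on pancreatectomy arrays and 8.28, 8.06, 8.00 and 7.90 on sham arrays. On 3 pancreatectomy arrays the signal lay above all sham arrays, and pancreatectomy replicate 1 lay below sham replicate 1. The SD between single spots of the same array was 0.086 to 0.166, and each array value is the mean of 9 or 10 spots. Ngfr averaged 8.42 ± 0.237 in pancreatectomy islets and 8.06 ± 0.162 in sham islets (SD, n = 4 arrays each), and the difference of 0.36 ± 0.17 (95% interval -0.019 to 0.73) had an adjusted p of 0.481 in limma, with an unadjusted p of 0.0599. Within slide row 1 the difference was 0.18 and within slide row 2 it was 0.54.

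Pmp22 was the member with the most distinct values between groups, and its 2 probes had differences of opposite sign. The probe A_55_P2040170 (chr11:62972989-62973048, plus strand) had signals of 10.79, 10.66, 10.24 and 10.73 on pancreatectomy arrays and 10.15, 9.98, 10.02 and 9.82 on sham arrays. Every pancreatectomy array lay above every sham array. This probe averaged 10.61 ± 0.249 in pancreatectomy islets and 9.99 ± 0.134 in sham islets, and its difference of 0.61 ± 0.17 (1.53-fold, 95% interval 0.24 to 0.99) had an adjusted p of 0.222 in limma, with an unadjusted p of 0.0049. The difference was 0.66 within slide row 1, 0.57 within slide row 2, 0.40 without pancreatectomy replicates 1 and 4 and sham replicate 4, and 0.70 without pancreatectomy replicates 1 and 3.

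The probe A_55_P2040168 (chr11:62971862-62971921, plus strand) starts 1127 bases from the other. Its signals were 9.44, 9.37, 9.35 and 9.22 on pancreatectomy arrays and 9.55, 9.66, 9.60 and 9.30 on sham arrays. The groups overlapped, since sham replicate 4 lay below 3 of the 4 pancreatectomy arrays. Its difference of -0.18 ± 0.14 (95% interval -0.50 to 0.13) had an adjusted p of 0.659 in limma. It was negative under all 21 alternative settings that kept this probe, from -0.30 with median scaling to -0.14 without sham replicate 2. Some of these settings, such as no filter or slide row as a block, cannot change the estimate.

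Within an array, the log2 signal of A_55_P2040170 minus that of A_55_P2040168 does not depend on how arrays are scaled by a constant. It was 1.35, 1.30, 0.89 and 1.51 on pancreatectomy arrays and 0.60, 0.32, 0.42 and 0.52 on sham arrays. All pancreatectomy arrays lay above all sham arrays. The mean was 1.26 ± 0.263 in pancreatectomy islets and 0.464 ± 0.121 in sham islets (SD, n = 4 arrays each), a difference of 0.80. This comparison was chosen after the values were seen and is given as a description, with no test. Among 5263 genes with at least 2 kept probes, 95.4% had a smaller difference between their 2 brightest, and in 5.72% the groups did not overlap. The difference lay between 0.65 and 0.94 under 21 alternative settings, some of which, such as median scaling or slide row as a block, cannot change it.

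**Figure D3:**
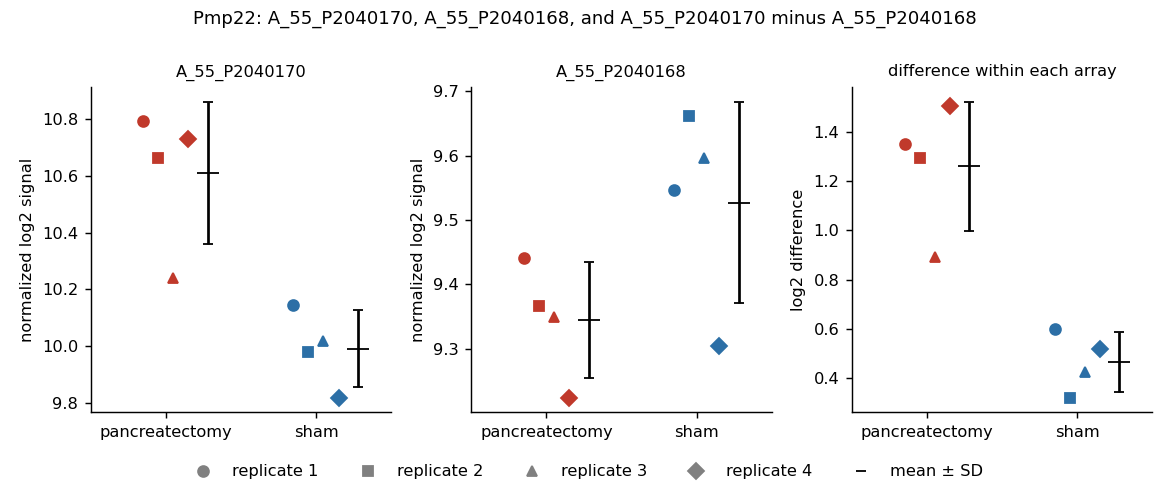
Normalized log2 signal of the 2 Pmp22 probes (left and middle) and their log2 difference within each array (right), for 4 pancreatectomy arrays (red) and 4 sham arrays (blue), with the mean ± SD beside the points. The within-array difference is 0.89 to 1.51 on pancreatectomy arrays and 0.32 to 0.60 on sham arrays.

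Pmp22 is known to start transcription at more than 1 promoter, one used in myelinating Schwann cells and others in many tissues, with the coding exons shared. RefSeq on the GRCm38.p6 build lists 4 starts for Pmp22, and the 250 bases before the first and the last of them are shown. The first lies at chr11:63128732-63128981 and has 48.8% G or C, and the last lies at chr11:63132553-63132802 and has 73.6%, both on the plus strand, against a median of 52.4% over 32851 windows of the same length. The probes are placed on mm9, and no start was assigned to either of them. Both probes are annotated to the same RefSeq transcript, and a part of the starts in their difference was not tested. Both sequences are in lower case, where capitals would mark a match to the motifs below.
Pmp22 first start: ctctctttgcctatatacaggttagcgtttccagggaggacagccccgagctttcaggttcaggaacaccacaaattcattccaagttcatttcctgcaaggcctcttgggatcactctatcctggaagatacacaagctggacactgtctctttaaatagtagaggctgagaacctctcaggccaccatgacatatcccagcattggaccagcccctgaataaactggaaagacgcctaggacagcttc
Pmp22 last start: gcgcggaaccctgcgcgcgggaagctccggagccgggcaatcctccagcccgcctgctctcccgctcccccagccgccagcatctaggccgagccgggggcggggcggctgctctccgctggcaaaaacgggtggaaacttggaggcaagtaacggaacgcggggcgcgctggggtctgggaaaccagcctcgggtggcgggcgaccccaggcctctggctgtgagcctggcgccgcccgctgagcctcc
The SOX motifs ACAAAG and ACAATG were searched on both strands, and they cannot both match at the same position of a strand. They were found in 0 of 7 windows of S100b, Pmp22, Ngfr and Gfap, the 4 members matched in the table, and in 8292 of 32851 windows (25.2%). No match says only that these letters are not in these windows.

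Gfap was near the limit of detection. The probe A_52_P52303 (chr11:102751813-102751872, minus strand) had signals of 5.45, 4.02, 4.27 and 5.13 on pancreatectomy arrays and 4.71, 4.66, 3.69 and 3.84 on sham arrays. The groups overlapped, with the highest values on pancreatectomy replicates 1 and 4. Its difference of 0.49 ± 0.37 (95% interval -0.36 to 1.34) had an adjusted p of 0.663 in limma. Pancreatectomy replicates 1 and 4 and sham replicate 4 carried liver transcripts. Albumin (Alb) was at 14.9, 2.11, 4.34 and 12.6 on pancreatectomy arrays and 4.18, 4.001, 4.89 and 13.8 on sham arrays. Sham replicate 4, 1 of these 3 arrays, had this Gfap probe at only 3.84, and the part of liver RNA was not tested. Without these 3 arrays the Gfap difference was -0.21, and with the normexp background correction it was 0.054.

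The other Gfap probes gave no clearer value. A_55_P2157250 (chr11:102748864-102748923, minus strand) had signals of 4.20, 4.07, 3.87 and 3.50 on pancreatectomy arrays and 4.13, 3.29, 4.33 and 3.38 on sham arrays. The highest and the lowest value were both on sham arrays, and the difference of 0.13 ± 0.28 (95% interval -0.50 to 0.76) had an adjusted p of 0.888 in limma and was 0.036 with normexp. A_55_P2157245 (chr11:102752726-102752785, minus strand) failed the background test on all 8 arrays and was not tested. With group means removed, r between the 2 tested probes was -0.151 over 8 arrays.

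Cdh19 (A_66_P109397, chr1:112785846-112785905, minus strand) had signals of 5.25, 5.48, 4.52 and 5.05 on pancreatectomy arrays and 4.01, 4.74, 4.91 and 4.39 on sham arrays. On 3 pancreatectomy arrays the signal lay above all sham arrays, and pancreatectomy replicate 3 lay below sham replicates 2 and 3. Cdh19 averaged 5.08 ± 0.407 in pancreatectomy islets and 4.51 ± 0.401 in sham islets (SD, n = 4 arrays each). The difference of 0.56 ± 0.26 (95% interval -0.032 to 1.16) had an adjusted p of 0.483 in limma, with an unadjusted p of 0.061. It was 0.99 within slide row 1, 0.14 within slide row 2 and 0.17 with normexp.

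**Figure D4:**
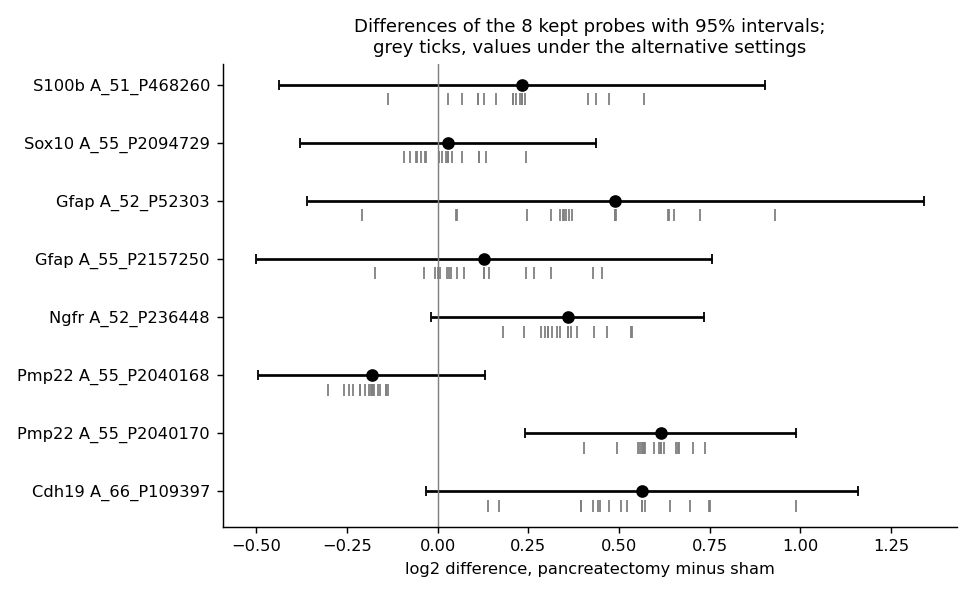
Log2 difference, pancreatectomy minus sham (x axis), of the 8 kept probes of the 6 genes, with bars for the 95% interval and grey ticks for the value under each alternative setting. The interval of Pmp22 A_55_P2040170, 0.24 to 0.99, lies above 0 before adjustment, and the other 7 include 0.

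The authors' deposited table of 1 mean per group gave differences of the same sign for all 9 probes. In the authors' deposited table the difference was 0.241 for S100b, 0.0367 for Sox10, 0.367 for Ngfr and 0.573 for Cdh19. It was 0.623 and -0.173 for the Pmp22 probes A_55_P2040170 and A_55_P2040168 in the authors' deposited table. It was 0.499, 0.136 and -0.426 for the Gfap probes A_52_P52303, A_55_P2157250 and A_55_P2157245 in the authors' deposited table.

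Other genes of the Schwann cell programme passed the test in neither direction by any kept probe. Medians were taken over the brightest kept probe of each gene. Of 14 measured myelin protein and lipid genes 0 rose and 0 fell, with a median difference of -0.05. Prx, which encodes the periaxin of myelinating Schwann cells, had a difference of 0.76 ± 0.33. Ugt8a, an enzyme of galactolipid synthesis for myelin, had -1.42 ± 0.45, with signals of 3.78, 2.43, 4.88 and 4.26 on pancreatectomy arrays, all below the sham arrays at 5.38, 5.05, 5.48 and 5.11. Its adjusted p was 0.31 in limma. With normexp the differences were 0.29 for Prx and -0.37 for Ugt8a. Of 14 measured genes of immature and non-myelinating Schwann cells 0 passed, with a median of -0.01. Among these, Apod, a lipid carrier of nerve and fibroblasts, had 0.88 ± 0.36, and Nes, the intermediate filament nestin, had 0.62 ± 0.29. Without pancreatectomy replicates 1 and 3 they were 0.31 for Apod and 0.23 for Nes.

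Of 10 measured factors of the lineage 0 passed, with a median of 0.101, and Sox2 and Olig1 were not well above background on any of the 8 arrays. Egr2, which switches on myelin genes in Schwann cells and is also an early response gene of other cells, had signals of 8.30, 5.37, 8.44 and 5.25 on pancreatectomy arrays and 4.19, 5.26, 4.28 and 3.75 on sham arrays. Its difference of 2.47 ± 0.78 had an adjusted p of 0.308 in limma, and the high values were on pancreatectomy replicates 1 and 3. It was 1.24 with normexp and 0.94 without these 2 arrays. Zeb2, a factor of Schwann cell differentiation that macrophages also express, had 0.49 ± 0.25. Of 9 measured repair genes 0 passed, with a median of 0.311, and Shh was not well above background on any of the 8 arrays. Ccl2, a chemokine that draws monocytes, had 1.81 ± 1.02 and Lif, a cytokine of injured nerve, had 0.70 ± 0.38. Without pancreatectomy replicates 1 and 3 the differences were 0.088 for Zeb2, -0.23 for Ccl2 and 1.09 for Lif, and Lif was at 0.042 with normexp.

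Pancreatectomy replicates 1 and 3 also stood apart in fibroblast markers. The summed linear signal of 13 fibroblast, stellate cell and pericyte markers was 128000, 14200, 56800 and 14000 on pancreatectomy arrays and 16200, 11600, 16600 and 9670 on sham arrays. All 13 had a positive difference, with a median of 1.14, and 0 passed. For macrophages 9 of 10 markers were measured, 0 passed, the median difference was 0.673, and Cd163 was not well above background on any of the 8 arrays. The mean log2 difference of macrophage markers from their sham mean was 1.64, -0.47, 1.3 and -0.0687 on pancreatectomy arrays and -0.25, -0.0082, 0.26 and 0.0016 on sham arrays, highest on pancreatectomy replicates 1 and 3. Their summed linear signal was 32600, 25700, 30600 and 22000 on pancreatectomy arrays and 26900, 27500, 37800 and 23800 on sham arrays, highest on sham replicate 3. The sum is led by its brightest probe, Itgam A_55_P1977934. That probe was at 14.49 on sham replicate 3 and at 13.04 and 13.21 on pancreatectomy replicates 1 and 3. S100b and Sox10 were not high on both arrays, at 8.78 and 8.02 for S100b and 8.37 and 8.17 for Sox10 on pancreatectomy replicates 1 and 3. Without these 2 arrays the difference was 0.57 for S100b, 0.24 for Sox10, 0.53 for Ngfr and 0.75 for Cdh19, and none passed the test. The pancreatectomy arrays left were replicates 2 and 4, the dimmest of their group, with a 75th percentile of the processed signal of 279 and 376. They also held the highest S100b and Sox10 values of the group, and the part of array brightness in these differences was not tested.

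**Figure D5:**
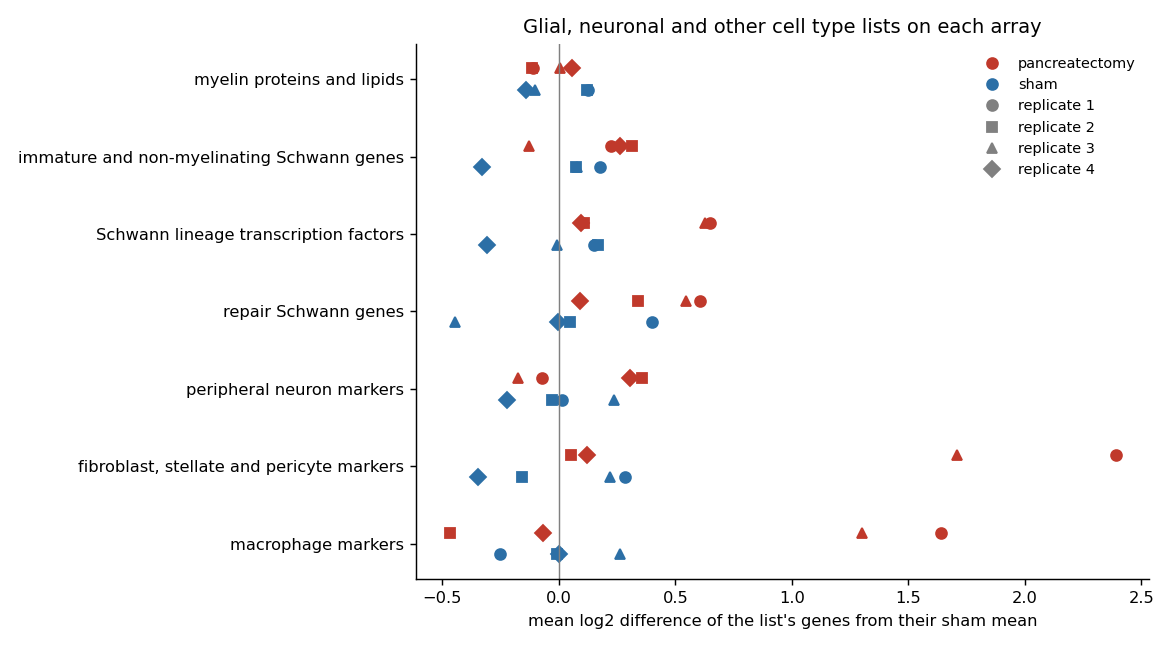
Mean log2 difference of each list's genes from their sham mean (x axis) on 4 pancreatectomy arrays (red, upper row of each list) and 4 sham arrays (blue, lower row), with symbols for replicates. Fibroblast markers reach 2.39 and 1.71 on pancreatectomy replicates 1 and 3, while myelin genes lie between -0.15 and 0.13 on all 8 arrays.

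In the ligands and receptors that act on Schwann cells, 1 gene passed. Gfra3, the receptor for artemin on sensory and sympathetic neurons and some Schwann cells, had signals of 9.001, 9.32, 9.41 and 9.55 on pancreatectomy arrays and 10.45, 10.48, 10.86 and 10.22 on sham arrays. All pancreatectomy arrays lay below all sham arrays, and Gfra3 fell by 1.18 ± 0.19 on the log2 scale, with an adjusted p of 0.0336 in limma. With slide row as a block the adjusted p was 0.0593, so the call was lost. It passed under 8 of 22 alternative settings, and leaving out any 1 array other than sham replicate 3 ended the call, and the differences lay from -1.30 to -1.06 over the 22 settings. The other 8 measured genes of this family did not pass, and Gdnf had 0.39 ± 0.24. Of 8 measured neuregulin and ErbB pathway genes 0 passed, with a median of 0.148. Here Adgrg6, a receptor needed for myelination by Schwann cells, had 0.38 ± 0.24 and Nrg4, a neuregulin ligand, had 0.38 ± 0.24. With normexp the differences were 0.024 for Gdnf, 0.11 for Adgrg6 and 0.13 for Nrg4. Erbb3, the Schwann cell receptor for neuregulin, was well above background on 2 pancreatectomy and 0 sham arrays and was not kept.

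Of 13 measured genes of the neurotrophin list 0 passed, and 11 had a negative and 2 a positive difference, with a median of -0.104. The list holds neurotrophins, their receptors and other genes such as Maged1 and Bex3. Ntf3, which encodes neurotrophin-3, had signals of 6.19, 6.55, 6.64 and 6.64 on pancreatectomy arrays, all below the sham arrays at 6.92, 7.06, 7.41 and 6.87. Its difference of -0.56 ± 0.18 had an adjusted p of 0.303 in limma. Ntf5, the gene of neurotrophin-4, had 0.90 ± 0.63, and 0.14 with normexp or 0.27 without pancreatectomy replicates 1 and 3.

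Relatives of the members by family included some with larger differences, which also missed the test. Of 15 measured genes of the S100 list 0 passed, with a median of 0.126. This list also holds Ager and S100pbp, which are not S100 genes, at -0.11 and 0.049. S100a8 and S100a9, which are abundant in neutrophils, had 2.57 ± 0.86 and 2.16 ± 0.77, with their 2 highest values on pancreatectomy replicates 1 and 3. In the PMP22 and EMP family 0 of 4 passed, and Emp3 had 1.17 ± 0.46 and Emp1 1.12 ± 0.42, both with their highest values on pancreatectomy replicates 1 and 3. Of 9 intermediate filament genes 0 passed, and Vim, the vimentin of mesenchymal cells, had 1.44 ± 0.52, with signals of 13.51, 11.17, 13.13 and 11.34 on pancreatectomy arrays and 10.96, 10.72, 11.20 and 10.53 on sham arrays. Without pancreatectomy replicates 1 and 3 the differences were 1.18 for S100a8, 0.93 for S100a9, 0.25 for Emp3, 0.39 for Emp1 and 0.40 for Vim. With normexp S100a8 was at 1.09 and S100a9 at 1.40. Of 8 measured type II cadherins, the family of Cdh19, 0 passed, with a median of -0.213, and Cdh5 of endothelium had 0.70 ± 0.27 and Cdh22 -0.51 ± 0.21. Without pancreatectomy replicates 1 and 3 they were 0.32 for Cdh5 and -0.34 for Cdh22. Sox9, of the same SoxE group as Sox10, had 0.61 ± 0.50, or 0.25 with normexp and -0.14 without pancreatectomy replicates 1 and 3, and Sox8 was not well above background on any of the 8 arrays.

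Markers of the other cell types counted passed in neither direction. Median differences were 0.134 over 10 endothelial, 0.537 over 6 smooth muscle, 0.834 over 6 lymphocyte, 0.122 over 9 acinar, 0.263 over 6 duct, -0.428 over 2 adipocyte, 1.77 over 9 liver, 0.906 over 6 gut epithelium, 0.29 over 3 astrocyte, 0.0404 over 5 melanocyte and -0.156 over 9 islet endocrine genes. Adipoq of adipocytes was not well above background on any of the 8 arrays. Gut and lymphocyte markers were high on pancreatectomy replicate 3, by 3.16 and 3.76 on average over the sham mean. The part of these markers in the glial values was not tested.

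For each member, the genes whose brightest probe varied most like its own were listed by Pearson's r over the 8 arrays with group means removed, from 14847 genes. With so many genes and 8 arrays, high values arise for every member, and no p is given. Sox10 was like Atf5 (r = 0.987) and Irak1 (r = 0.983). S100b was most like Hnrnpll (0.989), Rfng (0.976) and Isg20 (0.972), all values of r. For Ngfr the listed genes included Ppp1r27 (0.98) and Tmem91 (0.977). For Pmp22 they were Uevld (0.983), Map3k15 (0.971) and Qpctl (0.955), and for Cdh19 they were Poc5 (0.975), 2900054C01Rik (0.963) and Neo1 (0.955). For Gfap the values of r were 0.956 with Cenpq, 0.939 with Hic2 and 0.937 with Poll.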

How the data were processed

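One-colour arrays of islet RNA were compared, 4 after pancreatectomy and 4 after sham, all on 1 slide. The deposited intensity of each spot is Feature Extraction's background-subtracted processed signal, made with version 10.7.3.1 per the file headers (the submitters' processing notes name 9.1). The authors' deposited table holds 1 mean log2 value per group, which its header credits to GeneSpring GX 12.5 with a shift by the 75th percentile. Here, spots flagged as non-uniform or as population outliers were dropped (113 to 228 of 59305 per array, 0 saturated), log2 signals were shifted by each array's 75th percentile, the mean percentile was added back, and repeat spots were averaged. Probes well above background on at least 4 of 8 arrays, with at least 3 values per group, were kept. They were tested with limma 3.58.1 in R 4.3.3 (lmFit, eBayes), with Benjamini-Hochberg adjustment over 37491 probes. The fit was tested on simulated data. The number of arrays limits precision, and the median SE was 0.217. Sham arrays fill 2 slide columns and pancreatectomy arrays the other 2, so the effect of the column and that of the operation cannot be told apart. Both groups are present in each slide row. The planned normexp alternative was run on median spot signals, with an offset of 50. The members and lists were chosen with earlier results of these data known. All members were named, with every list gene that passed, the 2 largest differences of each glial, trophic factor and family list, and 3 genes per member by likeness, of which some are not reported here. RefSeq tables of GRCm38.p6 gave updated symbols and promoter sequences only.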

Additional observations from a re-analysis of the deposited data

Results flagged for a closer look

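In 3 of 62 groups of 4 arrays, 1 array lay far from the others by Dixon's test, which chance flags in about 1 of 20 groups. Ntf5 was at 2.08 on pancreatectomy replicate 4, while the other pancreatectomy arrays lay at 4.61 to 4.83. Cdh22 was at 10.67 on sham replicate 1, while the other sham arrays lay at 11.33 to 11.44. Nes was at 7.82 on sham replicate 3, while the other sham arrays lay at 8.55 to 8.70. These are normalized log2 signals, and no member probe was among them.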

How the results depend on the processing

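No kept member probe passed under any alternative, and the lowest adjusted p was 0.0708, for Pmp22 A_55_P2040170 with array weights. Sox10 turned negative at -0.093 with median scaling, -0.0592 in slide row 2, -0.0337 with array weights and -0.0768 without pancreatectomy replicates 1 and 4 and sham replicate 4. Leaving out 1 array gave Sox10 -0.0569 to 0.13, with negative values without pancreatectomy replicate 2, pancreatectomy replicate 4 or sham replicate 4. Without pancreatectomy replicates 1 and 4 and sham replicate 4, S100b was at -0.14 and Gfap A_52_P52303 at -0.21. Leaving out 1 array gave 0.066 to 0.47 for S100b, 0.25 to 0.72 for Gfap A_52_P52303 and -0.0367 to 0.31 for Gfap A_55_P2157250, which was at -0.17 in slide row 2. Adgrg6 was at -0.0903 and Sox9 at -0.13 in slide row 1, and without pancreatectomy replicates 1 and 3 Sox9 was at -0.14 and Ccl2 at -0.23. The cause was not tested. Over all probes, the share that limma called higher and lower was 0.136% and 0.016% with normexp, 0.107% and 0% without scaling (474 probes at an unadjusted p under 0.05 in either direction), 0.129% and 0.00898% without the filter, 0.317% and 0.0293% with slide row as a block, 1.71% and 2.1% with array weights, and 0.0401% and 0.00267% without pancreatectomy replicates 1 and 3. It was 0% and 0% in slide row 1 (2490 probes at an unadjusted p under 0.05), in slide row 2 (1135) and without pancreatectomy replicates 1 and 4 and sham replicate 4 (1697). Median scaling gave 0.141% lower and the filter on all 8 arrays 0.406% higher. Leaving out 1 array gave 0.155% to 0.493% higher and 0.0107% to 0.088% lower. No paired analysis was possible because the replicate numbers used here only name slide positions in order and pair no arrays. Slide row was fitted as a block in its place.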
